A study of Mus musculus with 12 samples.

Results

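The type I interferon response genes described here are 39 genes picked by symbol as known members of the response, of 55491 genes listed in the deposited tables. Each symbol matched 1 gene, and all 39 passed the filter on low counts, which left 17909 genes to test. They were followed in whole lungs of wild-type (labelled WT) C57BL/6J male mice, 10 weeks old, that had all received 0.0125 U of bleomycin per mouse into the airway, a standard way to induce lung fibrosis. The NP group (4 mice) was then given nanoparticles made of poly(lactide-co-glycolide) and coated with poly(ethylene-alt-maleic anhydride), 2 mg per dose into a vein daily on days 14 to 18 (5 doses), and was sampled at day 21. The vehicle group (4 mice) was sampled at the same day and is labelled as having received intravenous saline, the phosphate-buffered saline in which the particles are given. The day 14 group (4 mice) had bleomycin and no later injection, and was sampled when treatment of the others began. Every group carries the bleomycin injury, so no value here is set against an uninjured lung. Each library came from a homogenate of all 5 lung lobes of 1 mouse, and mice that share a number in different groups are different animals.

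Type I interferons are secreted by cells that detect viral or misplaced nucleic acid. They bind a shared receptor, whose kinases activate transcription factors such as Stat2, which joins Irf9 in a complex that binds the interferon-stimulated response element (ISRE) in the promoters of its targets. The targets include sensors of foreign RNA and DNA, enzymes and restriction factors that block viral growth, and feedback proteins such as Usp18. In lungs the response is best known from infection, and macrophages, monocytes, epithelium and endothelium can all mount it.

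Promoters are shown first because the largest falls at day 21 were found among genes that carry the element. A stretch upstream of the start was found in the RefSeq table (build GRCm38.p6) for 29 of the 39 genes. The ISRE core was searched as GAAA, NN and GAAA in 1 run (N is any base) on both strands, which reads as TTTC, NN and TTTC on the other strand, in the 250 bases before each start, and overlapping matches were kept. It was found in 11 of the 29 genes (37.9%), against 936 of 27025 genes with a window (3.46%). Of the 29, Ifit2, Irf9 and Trim30a had several listed starts, and a match before any start counted. Trim30a had its ISRE match before only some of its starts. The gamma-activated sequence (TTC, NNN and GAA in 1 run, which reads the same on both strands), another interferon-related element, was found in 4 of the 29 (13.8%) against 2197 of 27025 genes (8.13%). Bst2, Oas3, Stat2 and Trim30a also hold the core and are not shown. None of them passed the threshold used below for vehicle lungs at day 21 minus day 14. Their log2 fold changes there were -0.23, -0.74, -0.11 and -0.01. Below are the 200 bases before the start of 7 genes with an ISRE core, 6 of which fell in vehicle lungs, and of Cmpk2, which lies next to Rsad2 and has no match. Each is written along the gene's own strand with the bases of every ISRE match in capitals. 
Isg15 (chr4:156200819-156201018, minus strand): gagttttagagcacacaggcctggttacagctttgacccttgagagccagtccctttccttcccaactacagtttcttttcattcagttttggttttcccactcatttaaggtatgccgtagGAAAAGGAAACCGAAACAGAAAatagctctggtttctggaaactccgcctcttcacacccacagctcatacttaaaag
Ifit1 (chr19:34640689-34640888, plus strand): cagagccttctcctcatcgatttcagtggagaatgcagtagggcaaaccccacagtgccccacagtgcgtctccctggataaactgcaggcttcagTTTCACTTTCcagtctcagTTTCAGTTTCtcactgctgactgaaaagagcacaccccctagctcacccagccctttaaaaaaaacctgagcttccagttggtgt
Ifit3 (chr19:34583329-34583528, plus strand): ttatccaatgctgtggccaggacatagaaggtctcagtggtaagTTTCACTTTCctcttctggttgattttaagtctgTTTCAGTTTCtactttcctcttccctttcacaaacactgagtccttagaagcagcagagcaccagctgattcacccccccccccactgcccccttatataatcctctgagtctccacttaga
Ifit3b (chr19:34607757-34607956, plus strand): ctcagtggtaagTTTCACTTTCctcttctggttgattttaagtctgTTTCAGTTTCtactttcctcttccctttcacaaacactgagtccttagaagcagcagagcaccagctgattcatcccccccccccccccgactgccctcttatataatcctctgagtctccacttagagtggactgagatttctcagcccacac
Rsad2 (chr12:26456453-26456652, minus strand): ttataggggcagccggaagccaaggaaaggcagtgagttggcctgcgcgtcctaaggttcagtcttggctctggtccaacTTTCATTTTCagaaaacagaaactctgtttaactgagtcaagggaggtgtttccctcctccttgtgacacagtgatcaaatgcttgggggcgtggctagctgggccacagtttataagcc
Cmpk2 (chr12:26469015-26469214, plus strand): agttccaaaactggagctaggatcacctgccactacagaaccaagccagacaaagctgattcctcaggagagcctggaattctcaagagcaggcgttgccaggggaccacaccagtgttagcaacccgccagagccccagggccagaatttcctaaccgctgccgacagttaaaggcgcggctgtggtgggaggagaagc
Oas1a (chr5:120907526-120907725, minus strand): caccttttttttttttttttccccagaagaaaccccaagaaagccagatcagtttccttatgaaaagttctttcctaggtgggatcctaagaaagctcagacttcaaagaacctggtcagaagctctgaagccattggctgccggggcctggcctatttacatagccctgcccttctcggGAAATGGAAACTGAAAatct
Oas1g (chr5:120887614-120887813, minus strand): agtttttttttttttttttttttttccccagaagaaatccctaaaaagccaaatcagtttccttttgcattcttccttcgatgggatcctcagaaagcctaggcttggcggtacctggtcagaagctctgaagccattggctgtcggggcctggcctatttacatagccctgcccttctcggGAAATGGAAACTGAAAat
In Ifit1, Ifit3 and Ifit3b a pair of matches lay within a short distance of each other. In Isg15 overlapping matches formed 1 run. The Ifit3 and Ifit3b promoters were 86.2% identical over 218 aligned bases, and those of Oas1a and Oas1g were 63.7% identical over 248.

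**Figure D1:**
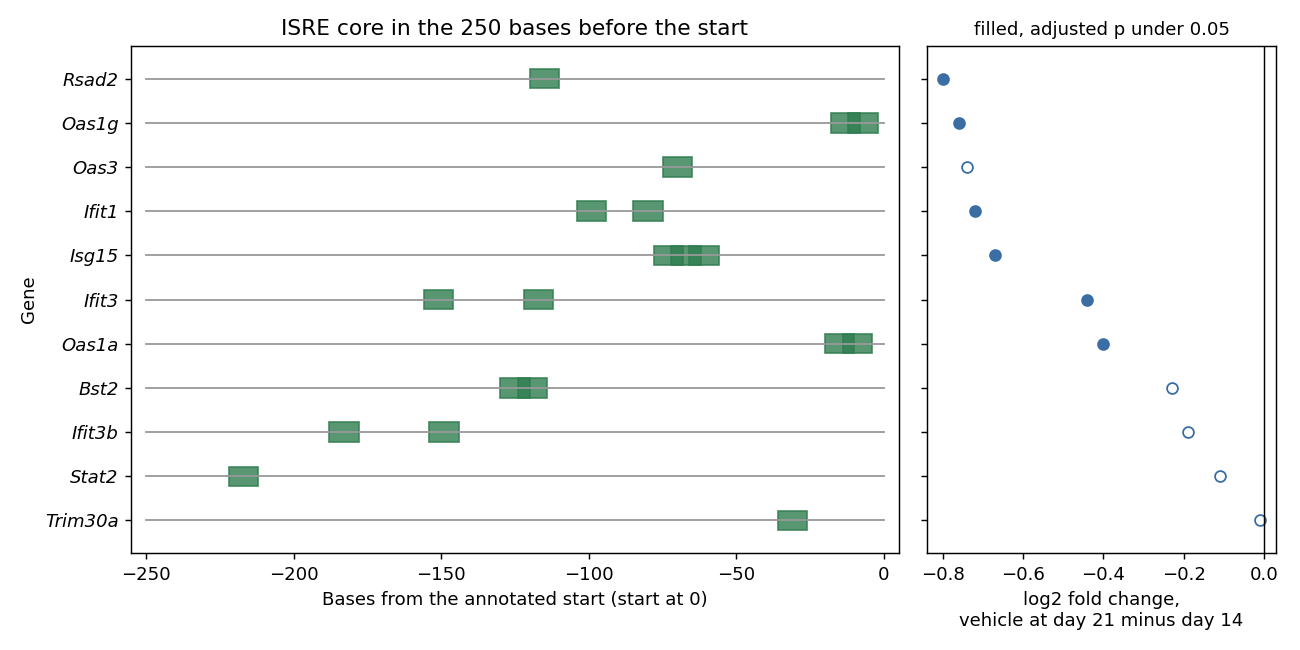
Left, position of each ISRE core match in the 250 bases before the annotated start for the 11 genes that hold one, in bases from the start (x axis). Right, log2 fold change of the same genes in vehicle lungs at day 21 minus day 14, filled where the adjusted p was under 0.05. Filled points stand at -0.40 or below, and the 11 values run between -0.80 and -0.01.

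The depth was 24138582 to 28910459 counts in NP libraries, 28001006 to 36208498 in vehicle libraries and 25706260 to 42714693 in day 14 libraries. Of the 12 libraries, 3 stood apart. NP mouse 1 was the highest of the 12 libraries for 28 of the 39 genes. It was the highest for 5.19% of all genes tested. Levels are in CPM, counts brought to a common library size so that libraries can be compared. NP mouse 3 had 1131 CPM summed over 6 neutrophil marker genes, against 89.8 to 105.6 CPM in the other NP mice, 59.0 to 146.3 CPM in vehicle mice and 38.9 to 85.4 CPM in day 14 mice. Day 14 mouse 2 had 945.6 CPM summed over 6 immediate early genes, against 291.2 to 518.9 CPM in the other 11 libraries, and it was the highest library for 18.3% of all genes tested. The part these differences play in the results was not tested beyond the values given without them.

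**Figure D2:**
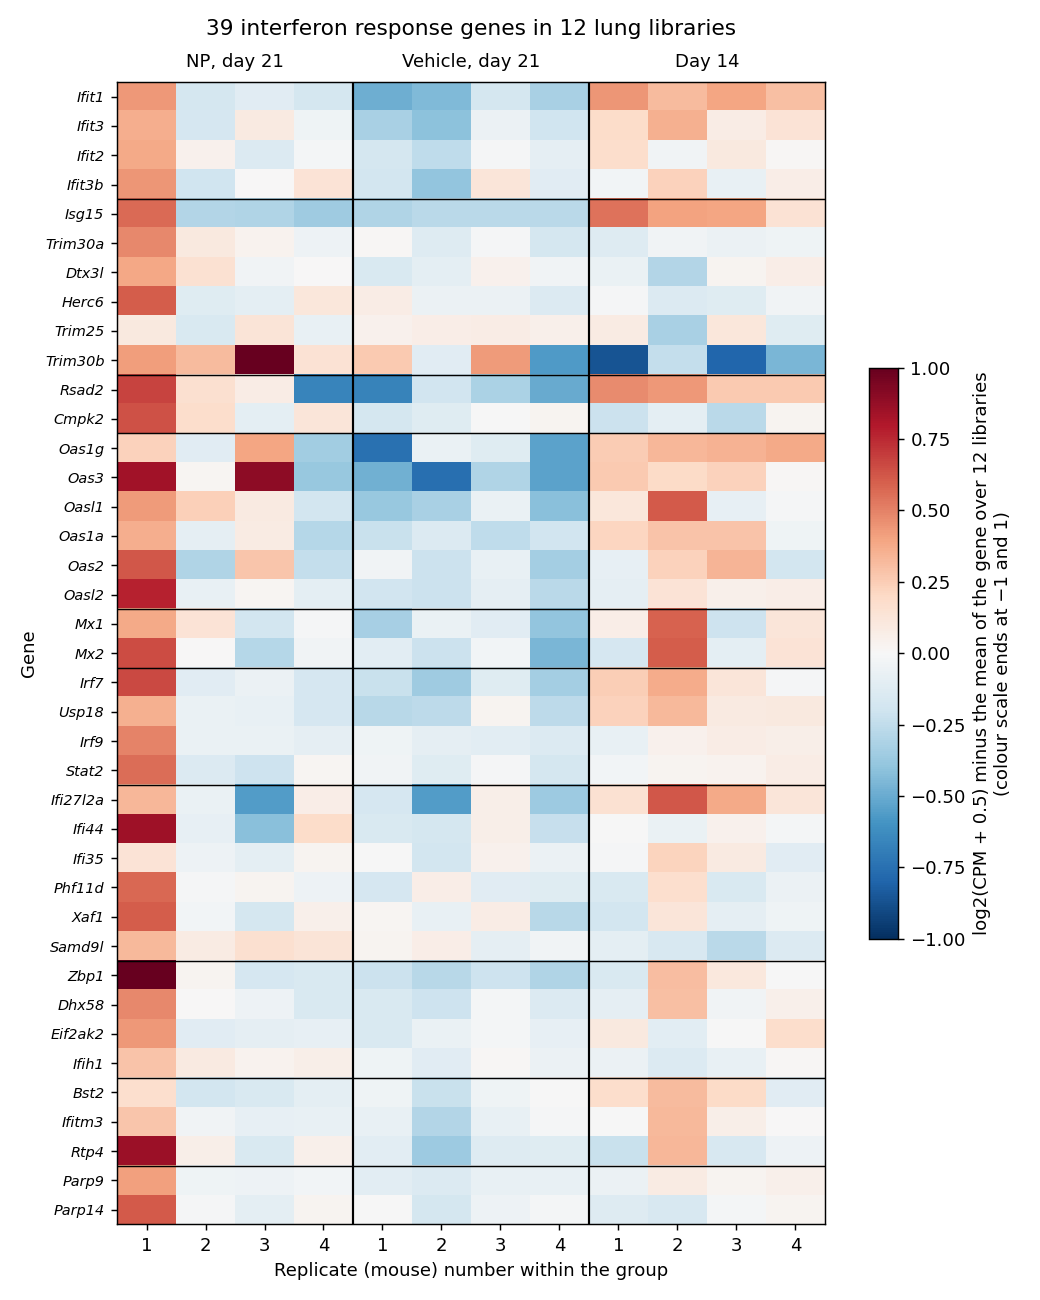
Level of the 39 genes (y axis, grouped by role) in the 12 libraries (x axis, NP mice left, then vehicle mice, then day 14 mice), as log2 CPM minus the gene's mean over the 12 libraries. The column of NP mouse 1 is above the gene's mean for all 39 genes, with a median of 0.44, and the 4 vehicle columns have medians of -0.18 to -0.06.

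Levels between genes are compared per length, in TPM (transcript abundance corrected for gene length) averaged over the 12 libraries. Ifitm3, a membrane protein that blocks viral fusion, was highest at 777.5 TPM, followed by Ifi27l2a at 258.8 TPM and Bst2, which tethers budding virus to the cell surface, at 199.2 TPM. Ifit3 had 86.5 TPM, Ifi35 56.8 TPM, Isg15 50.6 TPM and Oasl2 50.5 TPM. At the low end stood Oasl1 at 3.34 TPM, Trim30b at 2.83 TPM and Oas3 at 2.81 TPM. Over the 12 libraries Ifitm3 (648.1 to 966.9 TPM) did not overlap Ifi27l2a (167.6 to 367.6 TPM), and Bst2 (173.8 to 240.2 TPM) overlapped Ifi27l2a and not Ifit3 (65.3 to 112.1 TPM). Ifit3 also stayed just above Ifi35 (51.2 to 64.7 TPM). Below Ifi35 every gene overlapped its neighbour in the order.

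In vehicle lungs at day 21, part of the response stood below its day 14 level. edgeR's quasi-likelihood test with Benjamini-Hochberg adjustment over all genes tested, at an adjusted p under 0.05, called 7 of the 39 genes lower (Ifit1, Ifit3, Isg15, Rsad2, Oas1a, Oas1g and Usp18) and 0 higher. Among all genes tested, 6.51% were called lower and 3.79% higher (10.3% in either direction). The fold change was negative for 32 of the 39 genes, with a median of -0.20 on the log2 scale against 0.0031 for all genes tested. Without day 14 mouse 2 that median was -0.12. All 4 vehicle libraries lay below all 4 day 14 libraries for 14 genes (10.7% of all genes tested did so), and above them for 1 gene, Samd9l (7.20% of all genes). The number called depended on single libraries and ran between 1 and 9 when each of the 12 was left out in turn. It was 1 without vehicle mouse 1 or day 14 mouse 1, 2 without vehicle mouse 4, day 14 mouse 2 or day 14 mouse 3, 3 without vehicle mouse 2, and 4 without vehicle mouse 3 or NP mouse 2. Without NP mouse 1 it was 9. Ifit1 was called in each of the 12 fits. In bulk tissue, fewer cells of a responding type and less RNA per cell cannot be told apart.

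In NP lungs at day 21, 2 of the 39 genes were called higher than at day 14 by the same test, Samd9l and Trim30b, and 0 lower. The background was 6.16% of all genes called higher and 8.56% lower (14.7% in either direction). The fold change was positive for 24 genes (51.1% of all genes were positive) and negative for 15, with a median of 0.06 against 0.0062 for all genes. The unadjusted p was under 0.05 for 8 of the 39 genes, against 30.8% of all genes. All 4 NP libraries lay above all 4 day 14 libraries for 3 genes (Samd9l, Trim30b and Ifih1; 8.47% of all genes), and below them for 0 (10.6% of all genes). Without NP mouse 1 the fold change was negative for 26 genes and positive for 13, with a median of -0.09, and Ifit1 and Isg15 were called lower while Samd9l and Trim30b stayed called higher. Without NP mouse 3, 4 genes were called higher (Cmpk2 and Ifih1 were added), and without day 14 mouse 4, 3 were called higher and Bst2 lower. Without day 14 mouse 1 or day 14 mouse 3, Samd9l alone was called.

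Between NP and vehicle lungs at day 21, 0 of the 39 genes were called, and 0 of all genes tested (0.00%). The fold change was positive for 38 of the 39 genes, with a median of 0.24 against 0.002 for all genes tested, of which 50.8% were positive. The unadjusted p was under 0.05 for 15 of the 39 genes, all of them higher, and for 4.25% of all genes (2.41% higher). That 15 was 7 without vehicle mouse 1 or vehicle mouse 4, 8 without vehicle mouse 2, and 7 when only the groups compared were fitted. DESeq2 called 1 of the 39, Oas3, and 18 of all genes. All 4 NP libraries lay above all 4 vehicle libraries for Ifih1, Zbp1, Parp9 and Samd9l (4 genes, 1.80% of all genes), and below them for 0 (1.75%). Without NP mouse 1, 34 genes were positive and 5 negative, the median was 0.10 and 4 genes had an unadjusted p under 0.05. Without both NP mouse 1 and NP mouse 3, a choice made after seeing the data, the counts were 34 and 5, the median was 0.11 and 2 genes had such a p. The vehicle and day 14 comparisons share their libraries with this one, so the 3 sets of values are not independent of each other.

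**Figure D3:**
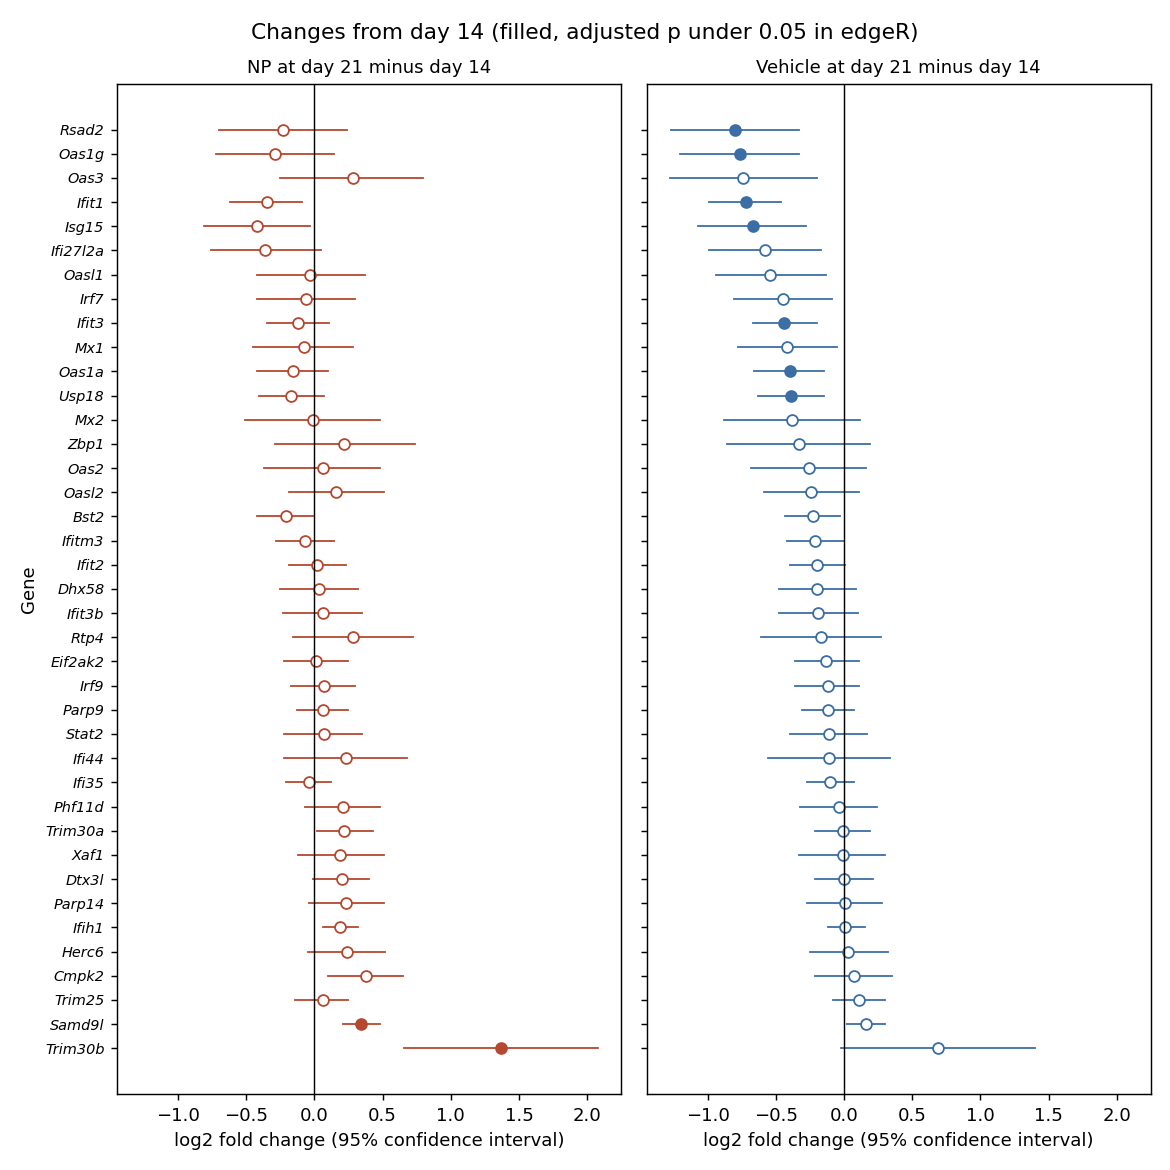
Log2 fold change of the 39 genes (y axis) in NP lungs at day 21 minus day 14 (left) and vehicle lungs at day 21 minus day 14 (right), with 95% confidence intervals from edgeR, filled where the adjusted p was under 0.05. The 7 filled vehicle points lie between -0.80 and -0.39, and the 2 filled NP points are Samd9l at 0.34 and Trim30b at 1.37.

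NP mouse 1 was high across the set. Its level exceeded the mean of the other 3 NP mice in 38 of the 39 genes. The ratio had a median of 1.45 over the 39 (0.778 to 2.23) and was above 1.5 in 16. Over all genes tested the median of that ratio was 0.996, and 551 of 17909 exceeded 1.5. It was the highest of the 4 NP libraries for 35 of the 39 genes, against 20.0% of all genes. The other 3 NP mice had median centred levels of -0.04, -0.07 and -0.05. Vehicle mice stood at -0.15, -0.18, -0.06 and -0.18, and day 14 mice at -0.01, 0.22, 0.04 and 0.02, with the 0.22 in day 14 mouse 2. Highest of the 12 libraries for the remaining genes were day 14 mouse 2 for 6 (Oasl1, Mx1, Ifi27l2a, Ifi35, Bst2 and Ifitm3), NP mouse 3 for 4 (Oas1g, Oas3, Trim25 and Trim30b) and day 14 mouse 1 for Ifit1.

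**Figure D4:**
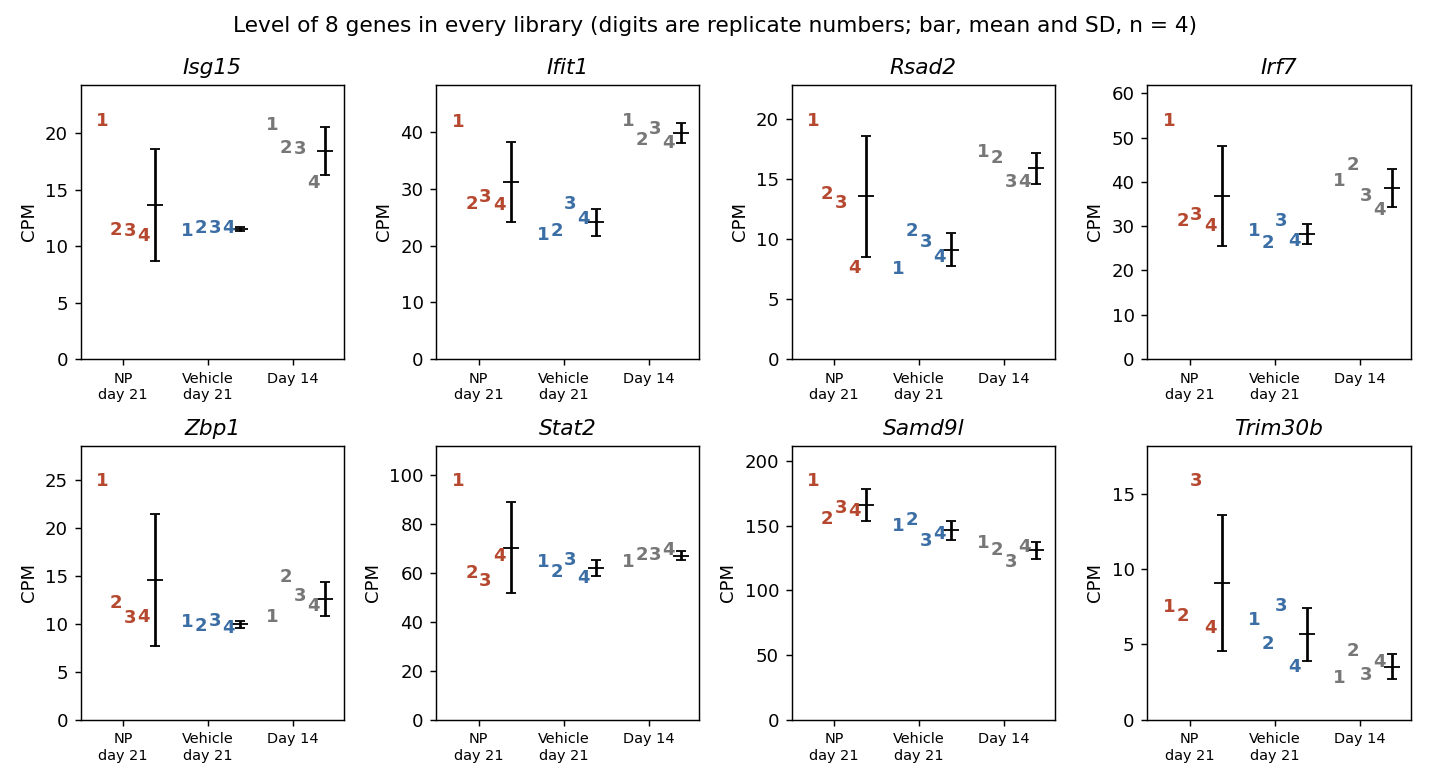
Level in CPM (y axis, from 0) of 8 of the genes in each of the 12 libraries, NP mice left, vehicle mice in the middle and day 14 mice right. Digits are mouse numbers, and bars give the mean and SD (n = 4). NP mouse 1 lies far above NP mice 2 to 4 for Isg15 (21.1 CPM against 10.9 to 11.4 CPM) and NP mouse 3 for Trim30b (15.8 CPM against 6.09 to 7.47 CPM).

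**Figure D5:**
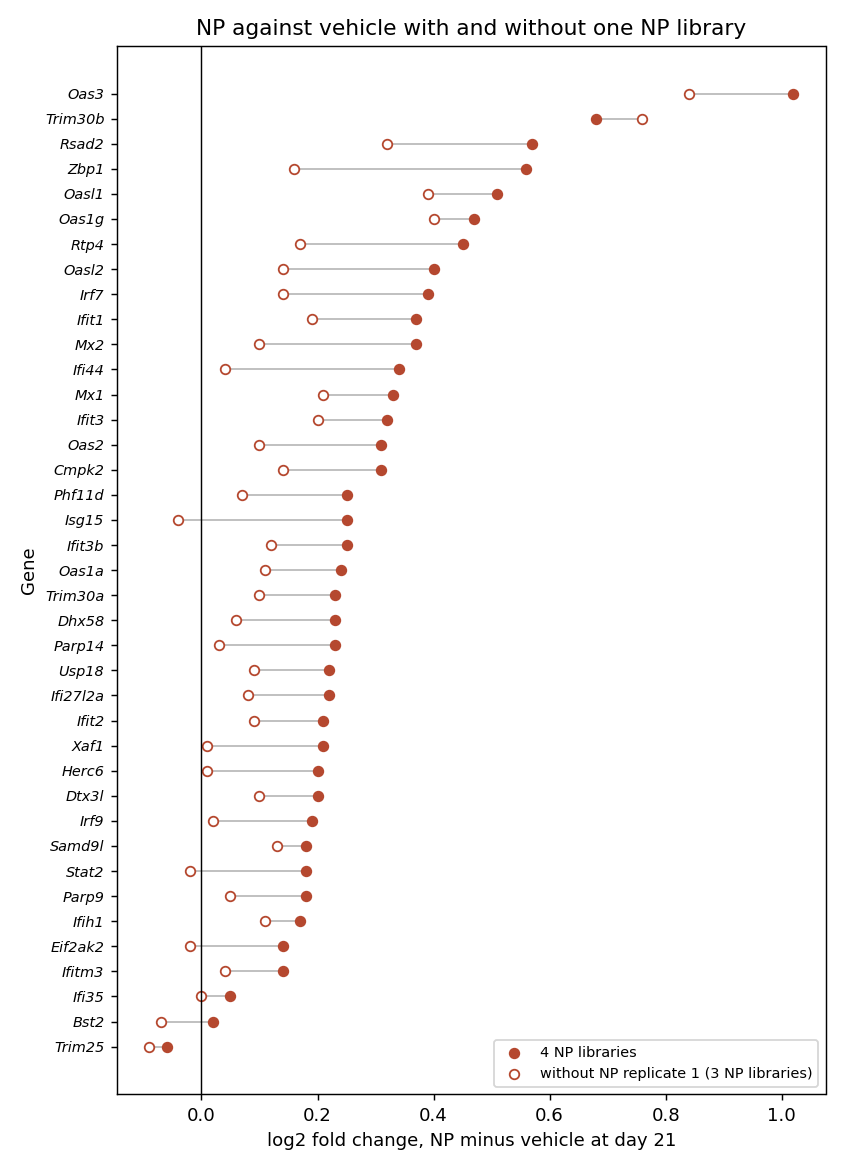
Log2 fold change of each gene (y axis) in NP minus vehicle lungs at day 21, with all 4 NP libraries (filled) and without NP mouse 1 (open, 3 NP libraries). The open points lie left of the filled ones except for Trim30b (0.76 without NP mouse 1, 0.68 with it), and 5 open points are below 0.

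The transcription factors come first in the order of the response. Irf7, the factor that amplifies interferon production, had 53.8, 31.2, 32.4 and 30.0 CPM in NP mice, 28.9, 26.3, 31.1 and 26.6 CPM in vehicle mice, and 40.1, 43.8, 36.9 and 33.6 CPM in day 14 mice. NP mouse 1 stood above every other library, all vehicle values were below all day 14 values, and the other NP values lay below day 14 as well. Its log2 fold change was 0.39 (SE 0.17, adjusted p = 0.999) for NP minus vehicle and -0.45 (SE 0.17, adjusted p = 0.101) for vehicle minus day 14. Leaving out NP mouse 1 brought it to 0.14 for NP minus vehicle and brought the vehicle difference past the threshold (adjusted p = 0.00893). Irf9, the DNA-binding part of the Stat complex, had 90.0, 60.7, 60.7 and 59.9 CPM in NP mice, 61.9, 59.7, 59 and 57.7 CPM in vehicle mice, and 60.3, 65.7, 67 and 66.3 CPM in day 14 mice. Only the value of NP mouse 1 left the range of 57.7 to 67.0 CPM. Stat2 had 97.4, 59.9, 56.8 and 66.8 CPM in NP mice, 64.3, 60.4, 65.1 and 58.1 CPM in vehicle mice, and 64.5, 67.2, 67.4 and 69.2 CPM in day 14 mice, with NP mouse 1 again above the rest. Neither gene passed the threshold in a comparison (adjusted p from 0.504 to 0.999), and for Stat2 the NP minus vehicle fold change was 0.18 with NP mouse 1 and -0.02 without it.

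Usp18, which strips Isg15 from proteins and quiets the receptor, had 26, 19.3, 19.2 and 18 CPM in NP mice, 16.6, 16.8, 20.6 and 16.8 CPM in vehicle mice, and 23.8, 25.5, 21.6 and 21.7 CPM in day 14 mice. Vehicle values all lay below day 14 values, while NP mouse 1 exceeded every other library and the other NP mice lay within the vehicle range. Usp18 fell in vehicle lungs relative to day 14 (log2 fold change -0.39, SE 0.11, adjusted p = 0.0425 by edgeR). This call was lost without any 1 of day 14 mice 1 to 4, NP mouse 2 or vehicle mice 1, 2 and 4, with adjusted p between 0.0516 and 0.129. It was also lost with the replicate number as a block (adjusted p = 0.0516). For NP minus day 14 it was -0.17 (SE 0.11, adjusted p = 0.339).

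Isg15 is a ubiquitin-like protein that is joined to other proteins during the response. Isg15 had 21.1, 11.4, 11.3 and 10.9 CPM in NP mice, 11.3, 11.6, 11.6 and 11.6 CPM in vehicle mice, and 20.7, 18.7, 18.6 and 15.6 CPM in day 14 mice. The 4 vehicle mice and 3 of the NP mice sat within 10.9 to 11.6 CPM, below all day 14 mice, and NP mouse 1 stood just above the highest day 14 mouse. The means were 13.7 ± 4.97 CPM in NP mice, 11.5 ± 0.164 CPM in vehicle mice and 18.4 ± 2.12 CPM in day 14 mice (SD, n = 4 each). Isg15 fell in vehicle lungs relative to day 14 (log2 fold change -0.67, SE 0.18, adjusted p = 0.0339). That call was lost when any 1 of the vehicle mice or day 14 mice 1, 2 or 3 was left out (adjusted p 0.0621 to 0.0954). In NP lungs the change from day 14 was -0.42 (SE 0.18, adjusted p = 0.132) with all 4 mice, and it was called lower without NP mouse 1 (-0.71, adjusted p = 0.00192). NP minus vehicle was 0.25 with all mice and -0.04 without NP mouse 1.

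Of 5 genes of ubiquitin ligases and their families, 1 was called, in 1 comparison. It was higher in NP lungs than at day 14, where 6.16% of all genes tested were called higher. Trim25, a ligase that acts on RNA sensors, had 119.8, 100.4, 122.4 and 106.3 CPM in NP mice, 115.5, 117.2, 117.7 and 116.1 CPM in vehicle mice, and 118.4, 89.2, 121.2 and 102.8 CPM in day 14 mice. The groups overlapped throughout, and the log2 fold changes were -0.06, 0.06 and 0.11 for NP minus vehicle, NP minus day 14 and vehicle minus day 14. Trim30b, a mouse member of the same protein family, had 7.47, 6.9, 15.8 and 6.09 CPM in NP mice, 6.63, 5.0, 7.51 and 3.53 CPM in vehicle mice, and 2.78, 4.56, 2.94 and 3.84 CPM in day 14 mice. NP mouse 3, the mouse with high neutrophil genes, was above all others, and all NP values exceeded all day 14 values. Trim30b was higher in NP lungs than at day 14 (log2 fold change 1.37, SE 0.33, adjusted p = 0.0174), and 0.97 without NP mouse 3 (adjusted p = 0.0161). The call was lost without day 14 mouse 1 or mouse 3 (adjusted p 0.0576 to 0.0578), and without both NP mouse 1 and NP mouse 3 (0.90, adjusted p = 0.0533). NP minus vehicle was 0.68 (SE 0.31, adjusted p = 0.999), and 0.27 without NP mouse 3. Trim30a, Herc6, which joins Isg15 to its targets in mice, and Dtx3l were not called in any comparison. Their NP minus day 14 fold changes were 0.22, 0.24 and 0.20, and 0.10, 0.05 and 0.11 without NP mouse 1.

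The Ifit genes encode proteins that bind foreign RNA and block its translation. The 4 of them lie within 99.3 kb of chromosome 19 (GRCm38). Ifit1 (chromosome 19, 34640871 to 34650009) had 41.8, 27.3, 28.5 and 27.2 CPM in NP mice, 21.9, 22.6, 27.3 and 24.6 CPM in vehicle mice, and 42, 38.6, 40.6 and 38.1 CPM in day 14 mice. Vehicle values lay below all day 14 values, NP mouse 1 was among the day 14 values and NP mice 2 to 4 were below them. The means were 31.2 ± 7.08 CPM in NP mice, 24.1 ± 2.45 CPM in vehicle mice and 39.8 ± 1.80 CPM in day 14 mice (SD, n = 4 each). Ifit1 fell in vehicle lungs relative to day 14 (log2 fold change -0.72, SE 0.12, adjusted p = 0.00437), and the call held without each library in turn (adjusted p 0.00121 to 0.0221). In NP lungs the change from day 14 was -0.35 (SE 0.12, adjusted p = 0.0698), and -0.52 without NP mouse 1 (adjusted p = 0.00259). The difference between NP and vehicle was 0.37 (SE 0.12, adjusted p = 0.950), and 0.19 without NP mouse 1.

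Ifit3 had 109.7, 75.7, 90.6 and 82.5 CPM in NP mice, 68, 64, 81.6 and 74.2 CPM in vehicle mice, and 96.8, 109.1, 89.7 and 93.6 CPM in day 14 mice. Again vehicle values lay below all day 14 values, with NP mouse 1 the highest library. Ifit3 fell in vehicle lungs relative to day 14 (log2 fold change -0.44, SE 0.11, adjusted p = 0.0237). The call was lost without day 14 mouse 1, day 14 mouse 2, vehicle mouse 1 or vehicle mouse 2 (adjusted p 0.0536 to 0.0817). Its near copy Ifit3b shared 41.1% of Ifit3's windows of 75 bases (35.7% of its own), so the split of reads between them is an estimate. Ifit3b had a vehicle minus day 14 fold change of -0.19 (adjusted p = 0.385) and Ifit2 one of -0.20 (adjusted p = 0.207), so 2 of 4 Ifit genes were called lower. Of all genes tested, 6.51% were called lower in that comparison.

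Rsad2 (viperin) makes a modified nucleotide that stops viral polymerases, and Cmpk2 is the kinase that supplies its substrate. They lie 12751 bases apart on opposite strands of chromosome 12. Rsad2 had 19.9, 13.8, 13 and 7.61 CPM in NP mice, 7.54, 10.7, 9.76 and 8.54 CPM in vehicle mice, and 17.3, 16.8, 14.8 and 14.8 CPM in day 14 mice. All vehicle values were below all day 14 values, and the NP mice were spread from below the vehicle mean to above every day 14 mouse. Rsad2 fell in vehicle lungs relative to day 14 (log2 fold change -0.80, SE 0.22, adjusted p = 0.0372). That call was lost without any 1 of the day 14 mice, NP mouse 2 or vehicle mice 1, 3 and 4 (adjusted p 0.0520 to 0.114). Rsad2 had an NP minus vehicle value of 0.57 (SE 0.22, adjusted p = 0.999), and 0.32 without NP mouse 1. Cmpk2, named here after its values were seen, had 47.2, 34.2, 28.2 and 32.8 CPM in NP mice, 26.6, 27.7, 30.1 and 30.7 CPM in vehicle mice, and 26, 28.2, 24.9 and 30.7 CPM in day 14 mice. Its groups overlapped between vehicle and day 14, and NP mouse 1 was highest. Its vehicle minus day 14 fold change was 0.07 (SE 0.13, adjusted p = 0.770), and NP minus day 14 was 0.38 (SE 0.13, adjusted p = 0.0664), or 0.22 without NP mouse 1.

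The Oas family is known for enzymes that make short oligoadenylates, which switch on the nuclease RNase L, and the 6 genes followed here lie on chromosome 5. All 6 had negative vehicle minus day 14 fold changes (median -0.47), and 2 were called lower, where 6.51% of all genes tested were. Oas1a had 20.0, 14.5, 16.4 and 12.6 CPM in NP mice, 13.2, 14, 12.9 and 13.5 CPM in vehicle mice, and 18, 19, 19 and 15 CPM in day 14 mice, and Oas1g had 4.03, 3.07, 4.57 and 2.54 CPM in NP mice, 1.8, 3.19, 3.05 and 2.16 CPM in vehicle mice, and 4.1, 4.37, 4.43 and 4.53 CPM in day 14 mice. For both genes every vehicle mouse was below every day 14 mouse, and NP mouse 1 or NP mouse 3 was the highest library. The vehicle minus day 14 fold change was -0.40 for Oas1a (SE 0.12, adjusted p = 0.0465) and -0.76 for Oas1g (SE 0.20, adjusted p = 0.0295). The Oas1a call was lost without any 1 of day 14 mice 1 to 3, NP mouse 2, NP mouse 3 or the vehicle mice (adjusted p 0.0517 to 0.125). The Oas1g call was lost without day 14 mice 1, 3 or 4 or vehicle mice 1 or 4 (adjusted p 0.0547 to 0.0929). These genes share 47.6% of Oas1a's windows of 75 bases (36.9% of those of Oas1g), so their separate counts are uncertain.

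Oas3, named here after its values were seen, had 14, 7.69, 14.5 and 5.73 CPM in NP mice, 5.29, 4.28, 6.05 and 5.08 CPM in vehicle mice, and 9.2, 8.75, 8.98 and 7.64 CPM in day 14 mice. NP mice 1 and 3 were the highest libraries and the lowest NP mouse lay within the vehicle range. NP minus vehicle was 1.02 (SE 0.25, unadjusted p = 0.00134, adjusted p = 0.867 by edgeR and 0.0331 by DESeq2). It was 0.84 without NP mouse 1, 0.83 without NP mouse 3 and 0.37 without both. Vehicle minus day 14 was -0.74 (SE 0.25, adjusted p = 0.0763), with all vehicle mice below all day 14 mice. It passed the threshold with the replicate number as a block (adjusted p = 0.0372). Oas2 had 28.9, 15, 22.6 and 15.7 CPM in NP mice, 18.1, 15.9, 17.6 and 14.6 CPM in vehicle mice, and 17.5, 21.9, 23.7 and 16.3 CPM in day 14 mice, with overlap between all groups and no call. Oasl1, which in mice restrains translation of Irf7, and Oasl2 were not called either (vehicle minus day 14 -0.54 and -0.24, adjusted p = 0.0833 and 0.366). Without day 14 mouse 2 the Oasl1 value was -0.33.

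Mx1 encodes a dynamin-like GTPase that traps viral cores, and the C57BL/6 strain is known to carry a defective allele. Mx1 had 9.71, 8.1, 6.41 and 7.25 CPM in NP mice, 5.74, 6.99, 6.74 and 5.47 CPM in vehicle mice, and 7.71, 11.3, 6.3 and 8.04 CPM in day 14 mice. Day 14 mouse 2 was the highest library and the groups overlapped. Vehicle minus day 14 was -0.42 (SE 0.17, adjusted p = 0.131), and -0.23 without day 14 mouse 2. Mx2, which the annotation lists as a polymorphic pseudogene, had -0.38 (adjusted p = 0.305), and -0.16 without that mouse.

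Of the 4 sensors of foreign nucleic acid, 0 were called in any comparison. Ifih1 (MDA5), the sensor of long double-stranded RNA, had 72.3, 62.9, 60.6 and 61.6 CPM in NP mice, 57.3, 54.6, 59.5 and 56.8 CPM in vehicle mice, and 56.6, 53.6, 56.2 and 59.5 CPM in day 14 mice. Every NP mouse was above every vehicle and every day 14 mouse. NP minus vehicle was 0.17 (SE 0.06, adjusted p = 0.979) and NP minus day 14 was 0.19 (SE 0.06, adjusted p = 0.0549), just outside the threshold. Zbp1, a sensor of left-handed nucleic acid that can trigger cell death, had 24.9, 12.2, 10.6 and 10.7 CPM in NP mice, 10.2, 9.79, 10.3 and 9.58 CPM in vehicle mice, and 10.7, 14.9, 12.9 and 11.9 CPM in day 14 mice. All NP values exceeded all vehicle values, by a small margin except in NP mouse 1. Zbp1 stood at 0.56 for NP minus vehicle (SE 0.24, adjusted p = 0.999), and 0.16 without NP mouse 1. Eif2ak2 (PKR), a kinase that halts translation on binding double-stranded RNA, had 72.5, 49.3, 50.2 and 50.4 CPM in NP mice, 48.1, 50.9, 52.6 and 50.4 CPM in vehicle mice, and 57.2, 49.7, 53.3 and 60.5 CPM in day 14 mice. Outside NP mouse 1 its groups overlapped, and NP minus vehicle was 0.14 with that mouse and -0.02 without it. Dhx58 (LGP2), a partner of Ifih1, was not called, at 0.23 for NP minus vehicle (0.06 without NP mouse 1) and -0.20 for vehicle minus day 14 (-0.09 without day 14 mouse 2).

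Ifitm3, Bst2 and Rtp4 had no call in any comparison. Ifitm3 had 253.2, 203.6, 196.6 and 197.5 CPM in NP mice, 197.7, 169.7, 198.2 and 206.4 CPM in vehicle mice, and 207.7, 260.6, 217.2 and 208.9 CPM in day 14 mice. Day 14 mouse 2 was highest and NP mouse 1 next, and vehicle values lay below day 14 values by a narrow margin. Its fold changes were 0.14 for NP minus vehicle, -0.07 for NP minus day 14 and -0.21 for vehicle minus day 14 (adjusted p = 0.177). The first was 0.04 without NP mouse 1 and the last -0.12 without day 14 mouse 2. Bst2 had 77.3, 60.6, 62 and 64.1 CPM in NP mice, 66.8, 58.8, 66.7 and 68.7 CPM in vehicle mice, and 77.6, 86, 78.8 and 63.7 CPM in day 14 mice, with overlapping groups. Bst2 stood at -0.21 for NP minus day 14 (adjusted p = 0.143) and -0.23 for vehicle minus day 14 (adjusted p = 0.132). Without day 14 mouse 4 the vehicle difference passed the threshold (adjusted p = 0.0452). Rtp4 was not called (NP minus vehicle 0.45, SE 0.20, and 0.17 without NP mouse 1).

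Samd9l, an interferon-induced protein that restrains translation and cell growth, was called higher in NP lungs than at day 14 whichever library was left out. Samd9l had 184.1, 155.4, 163.7 and 160.9 CPM in NP mice, 149.7, 154.0, 138.0 and 143.3 CPM in vehicle mice, and 136.8, 131.0, 121.8 and 133.5 CPM in day 14 mice. All NP mice lay above all vehicle mice and all vehicle mice above all day 14 mice. The means were 166.0 ± 12.5 CPM in NP mice, 146.3 ± 7.04 CPM in vehicle mice and 130.8 ± 6.43 CPM in day 14 mice (SD, n = 4 each). It rose in NP lungs relative to day 14 (log2 fold change 0.34, SE 0.06, adjusted p = 0.00407), with adjusted p between 0.00438 and 0.0181 when each library was left out. NP minus vehicle was 0.18 (SE 0.06, adjusted p = 0.950) and vehicle minus day 14 was 0.16 (SE 0.06, adjusted p = 0.120). Ifi27l2a, a small interferon-induced gene, had 40.4, 30.5, 21.5 and 33.5 CPM in NP mice, 28.4, 21.5, 33.3 and 24.7 CPM in vehicle mice, and 35.6, 49.4, 41.7 and 34.9 CPM in day 14 mice. Vehicle values were below all day 14 values, and NP mice overlapped both groups. Its vehicle minus day 14 fold change was -0.58 (SE 0.19, adjusted p = 0.0698). Parp9 and Parp14, which act in ADP-ribosylation, Xaf1, which promotes cell death, and Ifi35, Ifi44 and Phf11d were not called. Parp9 overlaps Dtx3l by 682 bases on the opposite strand, and strand use in counting is not given in the sources used here.

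Set against the promoters shown above, 6 of the 11 genes with an ISRE core were called lower in vehicle lungs relative to day 14, and their median fold change was -0.44 (-0.80 to -0.01). Of all genes tested, 6.51% were called lower in that comparison. The 6 fell to 1, Ifit1, without vehicle mouse 1 or day 14 mouse 1, and to 2 without vehicle mouse 4, day 14 mouse 2 or day 14 mouse 3. Of the 18 genes with a window and no match, 0 were called lower (2 without NP mouse 1), and the median was -0.07 (-0.54 to 0.69). The 10 genes without a window had 1 such call, Usp18, and a median of -0.30. For NP minus day 14 the medians were -0.16 with the element, 0.17 without it and 0.04 without a window, and both genes called higher lacked a match. Without NP mouse 1 those medians were -0.29, -0.03 and -0.16. For NP minus vehicle the medians were close to each other, at 0.25, 0.21 and 0.27, and without NP mouse 1 they were 0.12, 0.08 and 0.09. Genes such as Irf7, Ifit2 and Oasl2 had no match to these letters in the window, which says nothing about whether the factor binds them.

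The rest of the pathway was read from lists of its genes. Of 18 type I interferon genes, which encode the ligands, 0 had enough counts to be tested. They gave 40 counts in all over the 12 libraries and 10 of them were at 0, with sums of 0.0344 to 0.0831 CPM in NP mice, 0.0825 to 0.211 CPM in vehicle mice and 0.0362 to 0.189 CPM in day 14 mice. For comparison, 3 counts in 1 library were worth 0.0719 to 0.125 CPM. Ifnar1, the receptor chain, had 109.7, 114.2, 105.2 and 107.6 CPM in NP mice, 108.2, 110.5, 107.4 and 104.5 CPM in vehicle mice, and 104.6, 109.2, 108.8 and 112.7 CPM in day 14 mice, with overlap between all groups and no call in any comparison. Its receptor partner Ifnar2 was not called either, with adjusted p between 0.544 and 0.999.

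Among 21 other genes of nucleic acid sensing, 1 was called higher and 1 lower in NP lungs relative to day 14, and 1 lower in vehicle lungs. Of all genes tested, 6.16% were called higher and 8.56% lower in NP lungs, and 6.51% lower in vehicle lungs. Sting1, the adaptor of cytosolic DNA sensing, had 30.0, 28.8, 29.3 and 22 CPM in NP mice, 25.9, 27.9, 25.7 and 24.1 CPM in vehicle mice, and 30.9, 40.0, 39.4 and 33.6 CPM in day 14 mice. Every day 21 value lay below every day 14 value, with fold changes of -0.39 for NP minus day 14 (adjusted p = 0.0243) and -0.47 for vehicle minus day 14 (adjusted p = 0.0128). The first was lost without day 14 mouse 2, day 14 mouse 3 or NP mouse 4 (adjusted p 0.0601 to 0.0798), and the second without day 14 mouse 3 (adjusted p = 0.0504). Tlr3, an endosomal RNA sensor, had 51.5, 50.1, 45.6 and 46.2 CPM in NP mice, 45, 46, 46.3 and 47.2 CPM in vehicle mice, and 39.5, 39.5, 40.7 and 47.3 CPM in day 14 mice. It was called higher in NP lungs than at day 14 (0.21, adjusted p = 0.0435), a call lost without any 1 of day 14 mice 1 to 3, NP mice 1, 2 and 4 or vehicle mice 3 and 4 (adjusted p 0.0551 to 0.123).

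Of 6 negative regulators, Socs3, an inhibitor of cytokine receptors, was called lower in both day 21 groups. Socs3 had 58.4, 55.6, 95.8 and 49.1 CPM in NP mice, 47.2, 58.7, 48.6 and 58.9 CPM in vehicle mice, and 94.3, 90.1, 119.7 and 93.6 CPM in day 14 mice. NP mouse 3 alone of the day 21 mice reached the day 14 range. The fold change was -0.62 for NP minus day 14 (adjusted p = 0.0440), a call lost without any 1 library other than NP mouse 3 (adjusted p 0.0534 to 0.119), and -0.90 for vehicle minus day 14 (adjusted p = 0.0131). Of the 4 genes of other interferons that were tested, Ifngr2, a chain of the interferon gamma receptor, was called lower in both. Ifngr2 had 74.9, 71.5, 69.6 and 66.9 CPM in NP mice, 68.8, 68, 66.9 and 67.7 CPM in vehicle mice, and 80.1, 83.2, 84.3 and 83.3 CPM in day 14 mice, with every day 21 value below every day 14 value. Its fold change was -0.23 for NP minus day 14 (adjusted p = 0.00741) and -0.29 for vehicle minus day 14 (adjusted p = 0.00356). Of all genes tested, 8.56% were called lower for NP minus day 14 and 6.51% for vehicle minus day 14. Between NP and vehicle, 0 genes of these lists were called, and 0.00% of all genes tested.

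A further 54 interferon-induced genes outside the 39 were tested. In NP lungs relative to day 14, 5 were called higher and 3 lower, where 6.16% of all genes were called higher and 8.56% lower. The 5 was 1 without NP mouse 1 or day 14 mouse 1, 2 without NP mouse 2 or day 14 mouse 3, 8 without day 14 mouse 2 and 14 without NP mouse 3, and the 3 ran between 1 and 3 over the same fits. In vehicle lungs, 0 were called higher and 7 lower, against 3.79% and 6.51% of all genes, and between NP and vehicle 0 were called. The 7 ran between 2 and 7 when each library was left out. Their median fold changes were 0.17 for NP minus vehicle, 0.15 for NP minus day 14 and -0.02 for vehicle minus day 14. Without NP mouse 1 the NP medians were 0.08 and 0.08. NP mouse 1 was the highest of the 12 libraries for 35 of the 54, with a median centred level of 0.32. Slfn9 was lower in both day 21 groups, with 16, 13.1, 7.89 and 12.3 CPM in NP mice, 9.52, 14.8, 12.2 and 11.9 CPM in vehicle mice, and 33.1, 31.2, 27.7 and 30.4 CPM in day 14 mice, and log2 fold changes of -1.31 for NP minus day 14 (adjusted p = 0.00102) and -1.33 for vehicle minus day 14 (adjusted p = 0.00186). Ddx60, a helicase of RNA sensing, had 17.9, 14.7, 13.9 and 16.6 CPM in NP mice, 14.2, 12.8, 14.6 and 11.4 CPM in vehicle mice, and 11.9, 12.5, 9.32 and 10.9 CPM in day 14 mice, and was higher in NP lungs than at day 14 (0.50, adjusted p = 0.0108). Ms4a4c was called higher in the same comparison (1.04, adjusted p = 0.0239) and Ifi27 lower (-0.24, adjusted p = 0.0260). The Ms4a4c call was lost without day 14 mice 1 or 3 or NP mice 1, 2 or 4 (adjusted p 0.0597 to 0.0745), and the Ifi27 call without day 14 mice 1 to 3 or NP mice 2 to 4 (adjusted p 0.0501 to 0.0801). In vehicle lungs relative to day 14, Lgals3bp (-0.42, adjusted p = 0.0102), Ifi211 (-0.52, adjusted p = 0.0287) and Ifit1bl1 (-0.44, adjusted p = 0.0308) were called lower. Ifi211, a member of the same family as Ifi203 and Ifi207, had 17.4, 10.9, 11.4 and 11.2 CPM in NP mice, 8.07, 10.2, 10.1 and 9.73 CPM in vehicle mice, and 13.5, 14.4, 14.1 and 12.7 CPM in day 14 mice, and all vehicle values lay below all day 14 values. The Ifi211 call was lost without day 14 mice 1, 2 or 3 or vehicle mice 1 or 3 (adjusted p 0.0565 to 0.0977). The Ifit1bl1 call was lost without day 14 mice 1 or 3 or vehicle mice 2, 3 or 4 (adjusted p 0.0591 to 0.104).

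Markers of cells that respond to or make interferon were summed in each library. The plasmacytoid dendritic cell, classical monocyte and macrophage sums overlapped between all groups. The non-classical monocyte sums were lower in every vehicle mouse than in every day 14 mouse. Most of the single genes went the other way. For vehicle minus day 14, 4 of the 6 had positive fold changes (median 0.27) and 0 were called. The summed level of 6 plasmacytoid dendritic cell genes, markers of the main producers of type I interferon, was 250.1 to 266.1 CPM in NP mice, 227.0 to 271.8 CPM in vehicle mice and 229.7 to 259.3 CPM in day 14 mice. The 6 classical monocyte genes summed to 288.1 to 347.3 CPM in NP mice, 253.6 to 302.0 CPM in vehicle mice and 203.2 to 301.7 CPM in day 14 mice. Of these, 2 were called higher and 1 lower in NP lungs relative to day 14 (1 lower in vehicle lungs), and Ly6c2 was among the higher ones (0.90, adjusted p = 0.00378). The 6 non-classical monocyte genes summed to 1226 to 1628 CPM in NP mice, 1031 to 1293 CPM in vehicle mice and 1329 to 1375 CPM in day 14 mice, with 3 called higher in NP lungs relative to day 14. The 6 macrophage genes summed to 7100 to 8849 CPM in NP mice, 7470 to 8679 CPM in vehicle mice and 8238 to 9199 CPM in day 14 mice, with 1 called lower in NP lungs and 2 in vehicle lungs relative to day 14. Although the sums overlapped, 0 of the 6 genes had a positive fold change for vehicle minus day 14 (median -0.37). For NP minus day 14, 1 of the 6 was positive (median -0.20). The 6 genes of dividing cells summed to 45.8 to 105.6 CPM in NP mice, 70.8 to 127.3 CPM in vehicle mice and 220.0 to 234.5 CPM in day 14 mice, and all 6 were called lower in both day 21 groups relative to day 14. Of 6 marker genes each of endothelium, lung epithelium, neutrophils, B cells and T and NK cells, 0 were called in any comparison. For all these counts, the shares over all genes tested were 6.16% higher and 8.56% lower for NP minus day 14. For vehicle minus day 14 they were 3.79% higher and 6.51% lower. NP mouse 1 lay within the range of the other NP mice for the classical monocyte (324.9 CPM), macrophage (8522 CPM) and neutrophil (100.8 CPM) sums. It was the lowest NP mouse for the plasmacytoid (250.1 CPM) and non-classical monocyte (1226 CPM) sums. A single gene made up most of 3 of these sums in that mouse, Lyz2 (7991 CPM) for macrophages, Tcf4 (224.0 CPM) for plasmacytoid cells and Ace (1025 CPM) for non-classical monocytes. The 6 lung epithelial genes, which mark the labelled tissue, summed to 26710 CPM or more in every library. Of the 6 plasmacytoid genes, Cox6a2 was called higher at day 21 in both groups relative to day 14 (0.52, adjusted p = 0.0370, for NP and 0.51, adjusted p = 0.0454, for vehicle). The NP call was lost without any 1 of 7 libraries (adjusted p 0.0519 to 0.104) and the vehicle call without any 1 of 8 (adjusted p 0.0554 to 0.13). The part of these cell types in the interferon values was not tested.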

How the data were processed

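RNA-sequencing libraries of whole lungs from 12 mice were compared. The authors deposited expected counts per gene as whole numbers and TPM values scaled to the same total in each library, per the file headers. Read processing used cutadapt 4.8, STAR 2.7.8a and RSEM 1.3.3 on GRCm38, per the submitters' processing notes. The strand setting was not given in the sources used here. RSEM divides reads shared by similar genes by an estimate. Each column was matched to 1 mouse through its library name.

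From the expected counts, edgeR 4.0.16 in R 4.3.3 removed low genes with filterByExpr (minimum count 10, minimum total 15), leaving 17909 of 55491 genes. TMM scaling, 1 robust quasi-likelihood fit of the 12 libraries with a group term, and two-sided contrasts followed. Benjamini-Hochberg adjusted p under 0.05 over all genes tested was the threshold. Levels are given as CPM, with the library size multiplied by its TMM factor. A count of 3 was worth 0.0719 to 0.125 CPM, which covers counting error only. Libraries of 1 group differed by more than counting error in all 18 pairs (chi-square per degree of freedom 8.17 to 33.7). Alternatives used DESeq2 1.42.0, limma 3.58.1 on TPM, other filters and scalings, and fewer libraries.

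The members and lists were chosen with earlier results of these data known. Values in every library are given for members past the threshold and for 17 members picked by role, while Oas3 and Cmpk2 were added after their values were seen. The deposited FPKM values were not used. Results for some pathway genes are not reported here.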

Additional observations from a re-analysis of the deposited data

Results flagged for a closer look

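In groups of 4 libraries, a library was singled out when its gap to the nearest other library, as a share of the group's range, was above Dixon's 95% critical value. This was examined in 117 groups (39 genes in 3 groups), where chance would give about 1 in 20, or 5.85, if the groups were independent. They are not, because all 39 genes were read in the same 12 libraries. The criterion was met in 17 groups, over 14 genes, and 13 of the 17 were high values in NP mouse 1. The share flagged over all genes tested is not given here, so the 17 is a description and not a test. In NP mouse 1, against the other NP mice, Ifit1 had 41.8 CPM (others 27.2 to 28.5), Isg15 21.1 CPM (10.9 to 11.4), Oasl2 104.8 CPM (57.3 to 62.3) and Irf7 53.8 CPM (30.0 to 32.4). In the same mouse Irf9 had 90.0 CPM (59.9 to 60.7), Usp18 26 CPM (18.0 to 19.3), Zbp1 24.9 CPM (10.6 to 12.2), Ifitm3 253.2 CPM (196.6 to 203.6) and Rtp4 43.3 CPM (21.3 to 24.7). Parp9 had 73.2 CPM there (53.1 to 54.0), Parp14 203.8 CPM (124.0 to 135.7), Eif2ak2 72.5 CPM (49.3 to 50.4) and Phf11d 43.2 CPM (27.9 to 29.4).

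NP mouse 3 had 15.8 CPM of Trim30b, against 6.09 to 7.47 CPM in the other NP mice. In vehicle mice, mouse 1 had 11.3 CPM of Isg15 (others 11.6), mouse 2 had 18.3 CPM of Rtp4 (21.6 to 22) and mouse 3 had 20.6 CPM of Usp18 (16.6 to 16.8).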

How the results depend on the processing

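The median log2 fold change of the 39 genes kept its sign in all alternatives for NP minus vehicle and vehicle minus day 14. For NP minus day 14 it was -0.09 without NP mouse 1, and without both NP mice 1 and 3, an alternative added after seeing the data, it was -0.11. The median then ran over -0.09 to 0.12 when each library was left out for NP minus day 14, 0.06 with all. Genes of the 39 called numbered 0 for NP minus vehicle, 0 in each fit that left out a library, and 1 in DESeq2 (Oas3). For NP minus day 14 they numbered 2, against 1 with no filter on low counts, 5 in DESeq2, 4 without both NP mice, and 1 to 4 when each library was left out. For vehicle minus day 14 they numbered 7, against 11 when only the groups compared were fitted, 3 and 2 in limma on log2(TPM + 0.5) and log2(TPM + 0.1), 11 without both NP mice, and 1 to 9 when each library was left out. Beyond fewer or more libraries in the fit, the cause was not tested. No named gene past the threshold reversed its sign.

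Of all genes, DESeq2 called 18 for NP minus vehicle, against 0. For NP minus day 14 (2636) the count was 1672 with only the groups compared, 1584 and 1577 in limma, and 1363 to 2934 when each library was left out. For vehicle minus day 14 (1845) it was 1032 and 995 in limma and 719 to 2162. Same-numbered mice did not deviate together (correlation of deviations -0.074 to 0.148 over 12 pairs). With the replicate number as a block, 0, 2 and 7 of the 39 genes were called, in the order used above, and in the last Oas3 took the place of Usp18. The ligand genes had too few counts to be tested.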
